A study of Mus musculus with 6 samples.

Results

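The cytochrome P450 genes of mouse jejunal mucosa, 82 in number out of 19938 genes tested, were compared between ISR2 mice and wild type mice. They were chosen by symbol alone: Cyp, a number, 1 or more letters and a number, on array rows that carry 1 gene symbol. This leaves out Cyp51, the lanosterol demethylase of cholesterol synthesis. Of the 94 array rows with a P450 symbol, 82 were such rows, 1 for each gene. A further 7 rows carried several symbols, and 5 carried a symbol outside the rule (Cyp51, Cyp4a12a, Cyp4a12b and 2 pseudogenes). The ISR2 group was 3 arrays of a transgenic C57/BL line whose intestine has overactive SREBP2, the transcription factor encoded by Srebf2 that turns on cholesterol synthesis genes. The other group was 3 arrays of their wild type littermates. Both groups were 8 to 10 weeks old and ate regular chow, and RNA came from mucosa scraped off the jejunum, which holds epithelium together with immune and stromal cells. The labels name neither the construct nor the promoter of the transgene, and they do not say that each array was a separate mouse, so p-values measure the spread between these arrays.

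Cytochromes P450 are heme enzymes that insert an oxygen atom into their substrate, taking electrons from cytochrome P450 reductase in the endoplasmic reticulum or from ferredoxin in mitochondria. Some clear drugs and dietary compounds, for which the small intestine is a first barrier beside the liver. Others make or remove bile acids, steroid hormones, vitamin D, retinoic acid and oxidised fatty acids. Many are switched on by ligand-activated factors such as PXR (Nr1i2), CAR (Nr1i3), the aryl hydrocarbon receptor (Ahr) and PPAR alpha (Ppara).

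All values are log2 expression values made by RMA, and differences are ISR2 minus wild type on that scale. Srebf2 stood at 11.02, 10.85 and 11.16 in ISR2 arrays, against 9.04, 9.15 and 9.50 in wild type arrays, so the arrays followed their labels. Xist was between 3.92 and 4.11 and the Y-linked gene Eif2s3y between 7.82 and 8.38 across the 6 arrays, and neither list of values separated the groups; the sex of the mice is not given in the labels. No detection call was available, and 53 of the 82 P450 genes had a mean signal below the median of all genes, 6.40. Differences of such dim genes may be compressed by background signal.

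Of the 82 P450 genes, 3 rose and 0 fell in ISR2 mucosa at an adjusted p under 0.05 in limma. Over all genes 3.02% were called, with 1.79% that rose and 1.23% that fell. The risers were Cyp2r1, Cyp20a1 and Cyp4f16, and the other 79 did not pass. At an unadjusted p under 0.05, 8 P450 genes were higher and 14 were lower, where the shares over all genes were 4.73% and 8.4%. The 3 ISR2 arrays lay all above the 3 wild type arrays for 8 P450 genes and all below for 14. The same separation held for 5.87% of all genes upward and 13.9% downward, 19.8% together. The median log2 difference of the 82 genes was -0.10, beside -0.06 over all genes tested, and 49 of the 82 were below 0. That is a smaller share than the 62.6% of all genes below 0. The order of the shares was not stable. After median centring 47 of 82 P450 genes were below 0, a larger share than the 10659 of all 19938 genes. Without ISR2 replicate 2 the share was again larger, with 57 of 82 beside 11977 of all. With quantile normalization it stayed smaller, with 48 of 82 beside 11961 of all. Most P450 differences were small, with the middle of the family between -0.27 and 0.11 (quartiles) and 4 of 82 genes at 2-fold or more. Over all genes, 1.79% reached 2-fold. In scraped mucosa, fewer cells of a type and less RNA per cell cannot be told apart.

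**Figure D1:**
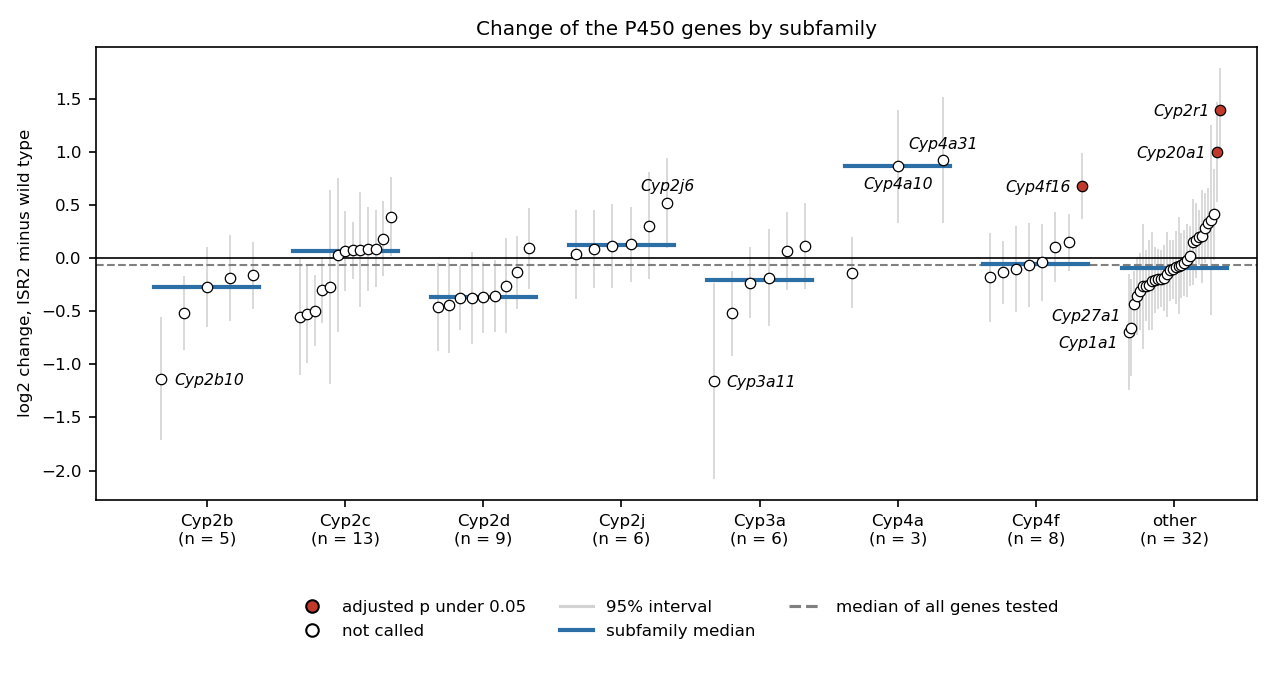
Log2 change (ISR2 minus wild type, y axis) of each of the 82 P450 genes, grouped on the x axis by subfamily, with 95% intervals; filled points passed an adjusted p of 0.05 blue bars are subfamily medians, and the dashed line is the median of all genes tested. The filled points are Cyp2r1 at 1.40, Cyp20a1 at 1.00 and Cyp4f16 at 0.68, and the lowest points are Cyp3a11 at -1.16 and Cyp2b10 at -1.13.

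Cyp2r1, which encodes the enzyme of the first step of vitamin D activation, had the largest rise of the family. It stood at 6.38, 6.87 and 6.26 in ISR2 arrays, against 5.21, 5.16 and 4.95 in wild type arrays. Every ISR2 array was above every wild type array, with a gap wider than the spread within either group. The difference was 1.40 ± 0.18 (SE, 3 arrays per group; 95% interval 1.00 to 1.79), a 2.63-fold rise (adjusted p = 0.00249). It passed without each array in turn, with adjusted p up to 0.0151. Its mean signal of 5.81 was below the median of all genes, 6.40, so Cyp2r1 is itself among the dim genes. None of the other 4 vitamin genes passed. Cyp27b1, which takes the second step of vitamin D activation in the kidney, differed by -0.10 ± 0.12 (SE; adjusted p = 0.805). The retinoic acid hydroxylase genes Cyp26a1, Cyp26b1 and Cyp26c1 differed by -0.26, 0.20 and 0.02. Cyp26b1 stood at 6.35, 6.34 and 6.30 in ISR2 arrays, against 6.17, 6.13 and 6.10 in wild type arrays. Every ISR2 array was above every wild type array there, by a small margin (adjusted p = 0.539). Cyp26a1 stood at 4.90, 4.53 and 4.45 in ISR2 arrays, against 4.85, 4.98 and 4.83 in wild type arrays, so the groups overlapped.

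Cyp20a1, an orphan P450 with no settled substrate, was the second riser. Its ISR2 arrays were close together at 7.79, 7.72 and 7.80, against 6.24, 7.00 and 7.05 in wild type arrays. The difference was 1.00 ± 0.21 (SE), a 2.00-fold rise (adjusted p = 0.0381). Wild type replicate 1 was the lowest array, and without it the difference was 0.74 and still passed. The call was lost without ISR2 replicate 1, 2 or 3 or wild type replicate 2, with adjusted p between 0.0547 and 0.156. The remaining genes with no assigned role, Cyp2ab1, Cyp2t4 and Cyp2w1, differed by -0.08, -0.31 and -0.18 and did not pass.

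The promoter windows of the 3 genes that rose are shown because the study concerns a promoter-binding factor. They are RefSeq sequences of build GRCm38.p6, from 250 bases before to 50 bases after the start, 5′ to 3′ on the gene's strand. The letters searched on both strands were CACCCCAC (the core of a sterol response element), CACGTG (the palindromic E-box), CCAAT (the box of NF-Y) and GGGCGG (the GC box of Sp1). Capitals mark each match. Cyp2r1 on chr7:114562923-114563222 (minus strand) held CCAAT at 2 places, Cyp4f16 on chr17:32536307-32536606 (plus strand) held CCAAT and GGGCGG, each on the reverse strand, and Cyp20a1 on chr1:60343050-60343349 (plus strand) held none of the 4.
Cyp2r1: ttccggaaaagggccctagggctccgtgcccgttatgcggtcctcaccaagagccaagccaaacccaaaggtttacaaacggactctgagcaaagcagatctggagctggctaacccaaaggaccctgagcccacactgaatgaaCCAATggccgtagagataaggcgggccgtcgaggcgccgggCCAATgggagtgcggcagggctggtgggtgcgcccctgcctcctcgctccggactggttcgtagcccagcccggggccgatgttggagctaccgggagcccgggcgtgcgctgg
Cyp20a1: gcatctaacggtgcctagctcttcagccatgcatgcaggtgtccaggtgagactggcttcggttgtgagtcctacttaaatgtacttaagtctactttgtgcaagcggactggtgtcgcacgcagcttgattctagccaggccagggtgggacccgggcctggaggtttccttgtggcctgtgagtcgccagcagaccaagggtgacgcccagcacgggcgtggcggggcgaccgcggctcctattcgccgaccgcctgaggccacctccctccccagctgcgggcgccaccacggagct
Cyp4f16: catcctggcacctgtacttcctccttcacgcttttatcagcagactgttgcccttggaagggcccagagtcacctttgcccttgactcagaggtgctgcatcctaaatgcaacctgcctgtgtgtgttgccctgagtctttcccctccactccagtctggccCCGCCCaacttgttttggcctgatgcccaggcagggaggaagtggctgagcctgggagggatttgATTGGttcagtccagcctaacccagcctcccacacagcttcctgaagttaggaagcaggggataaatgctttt
A window was found for 63 of the 82 P450 genes. CACCCCAC was in 1 of these 63 (Cyp2w1), or 1.59%, and in 3.30% of 27025 genes with a window. CACGTG was in 1 (Cyp2j6), or 1.59%, beside 8.09% of all. CCAAT was in 31, or 49.2%, beside 41.1% of all, and GGGCGG in 16, or 25.4%, beside 38.2% of all. A match is a description of the letters, not a bound site.

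Among the 14 genes of fatty acid hydroxylation (family Cyp4 and Cyp2u1), 1 rose, 0 fell and 13 did not pass. The gene that rose was Cyp4f16, of the subfamily that hydroxylates long-chain fatty acids and leukotrienes. It stood at 10.40, 10.56 and 10.23 in ISR2 arrays, against 9.81, 9.56 and 9.78 in wild type arrays. The groups were apart, by 0.68 ± 0.14 (SE), a 1.60-fold rise (adjusted p = 0.0342). The call held without ISR2 replicate 3 and was lost without any other single array (adjusted p up to 0.145). The other 7 Cyp4f genes lay between -0.18 (Cyp4f18) and 0.15 (Cyp4f37), with Cyp4f15, Cyp4f39 and Cyp4f40 at -0.04, 0.11 and -0.07. Among them, Cyp4f14 stood at 11.27, 11.62 and 11.47 in ISR2 arrays, against 11.54, 11.59 and 11.62 in wild type arrays. Its difference of -0.13 had a 95% interval of -0.43 to 0.16. Cyp4f13 differed by -0.10 (interval -0.50 to 0.30).

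The genes Cyp4a10 and Cyp4a31, close relatives whose family is induced by PPAR alpha in mouse liver, were higher in ISR2 mucosa without passing. Cyp4a10 stood at 6.63, 7.07 and 7.58 in ISR2 arrays, against 6.52, 6.13 and 6.03 in wild type arrays. Cyp4a31 stood at 5.10, 5.21 and 6.11 in ISR2 arrays, against 4.61, 4.25 and 4.79 in wild type arrays. In both genes the groups did not overlap and ISR2 replicate 3 was the highest array. The differences were 0.87 ± 0.24 and 0.93 ± 0.26 (SE), with adjusted p = 0.113 and 0.132. Another row that carries Cyp4a10, Cyp4a31 and Cyp4a32 together differed by 0.77, and the 3 rows may share signal. Cyp4a14, of the same subfamily, stood at 4.45, 4.49 and 4.06 in ISR2 arrays, against 4.38, 4.55 and 4.49 in wild type arrays, with no separation. Cyp4b1, Cyp4x1 and Cyp2u1 differed by -0.21, -0.20 and -0.07. A row that carries Cyp4v3 and Klkb1 together is outside the rule. It stood at 7.64, 7.86 and 7.62 in ISR2 arrays, against 8.38, 8.69 and 8.26 in wild type arrays. The difference was -0.74 in the limma fit of all rows (adjusted p = 0.0917), and the signal cannot be assigned to either gene.

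Drug-metabolising genes of subfamilies Cyp2a, Cyp2b, Cyp2d to Cyp2g and Cyp3a, 25 in number, held no call. The 13 Cyp2c genes, 8 above 0 and 5 below, are not among the 25 and are given with Cyp2j. Of the 25, 19 were below 0 and 8 had every ISR2 array under every wild type array. Over all genes, 62.6% were below 0 and 13.9% had that separation. The median of the 25 was -0.26. At an unadjusted p under 0.05, 9 were lower and 0 higher, where 8.4% of all genes were lower. The median was between -0.35 and -0.17 over 15 alternative fits, and only changes of scaling, weights or arrays could move it. Several marker lists were lower in ISR2 mucosa beside them. Of 13 enterocyte markers, 2 fell and 8 had every ISR2 array under every wild type array (13.9% over all genes), with a median of -0.29. The enterocyte mean was 12.43 to 12.68 in ISR2 arrays, against 12.84 to 12.88 in wild type arrays. The 2 that fell were Alpi, an alkaline phosphatase, and Slc15a1, a peptide transporter. Of 9 T cell markers, 5 fell (Cd3e, Cd3g, Cd7, Cd8a and Gzmb) and 7 had every ISR2 array under every wild type array, with a median of -1.06. Their mean was 6.74 to 7.29 in ISR2 arrays, against 7.70 to 8.14 in wild type arrays. None of the 7 goblet and Paneth markers or the 5 B and plasma cell markers passed, with medians of -0.36 and -0.35. The array means of both lists overlapped between the groups. Not every list was lower: the 12 smooth muscle, stroma and endothelial markers had a median of 0.20, with 0 called. Of 10 myeloid and mast cell markers, 1 rose and 0 fell, with a median of -0.14. The part of these lists in the P450 values was not tested.

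Cyp2b10, the classic CAR target of mouse liver, stood at 10.01, 11.19 and 10.69 in ISR2 arrays, against 11.85, 11.74 and 11.70 in wild type arrays. All ISR2 arrays were lower, and they were spread over more than 1 log2 unit where the wild type arrays lay close together. The difference was -1.13 ± 0.26 (SE), 2.19-fold lower, with adjusted p = 0.0520 just outside the threshold. It passed in 7 of 16 alternative fits. Without ISR2 replicate 2 it was -1.41 (adjusted p = 0.00636), and without ISR2 replicate 1 it was -0.82 (adjusted p = 0.0969). With each array left out in turn, the limma adjusted p went up to 0.214. The other 4 Cyp2b genes were also below 0, and all 5 stayed there in each of 15 alternative fits. Only the fits that changed scaling, weights or arrays could move these signs. In Cyp2b10 and Cyp2b9, whose groups did not overlap, only a change of scaling could, so those signs were largely fixed in advance. Of the other Cyp2b genes, Cyp2b9 stood at 5.99, 6.44 and 6.08 in ISR2 arrays, against 6.80, 6.54 and 6.74 in wild type arrays. It was 1.43-fold lower (adjusted p = 0.154). The groups overlapped in Cyp2b13, Cyp2b19 and Cyp2b23, at -0.27, -0.19 and -0.16. In the related subfamilies, Cyp2a22 was 1.35-fold lower without overlap (adjusted p = 0.182), and Cyp2a12, Cyp2f2 and Cyp2g1 overlapped at 0.21, -0.02 and 0.28. Cyp2a22 was dim, with a mean signal of 3.61.

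Cyp3a11, the main PXR-responsive drug oxidase of mouse liver and gut, had the widest spread. It stood at 8.87, 10.83 and 9.90 in ISR2 arrays, against 11.33, 10.77 and 10.97 in wild type arrays. ISR2 replicate 2 lay among the wild type arrays and the other two lay below them. The difference was -1.16 ± 0.41 (SE; adjusted p = 0.246), and it was -1.64 without ISR2 replicate 2 (adjusted p = 0.0208). Cyp3a44 stood at 6.15, 6.75 and 6.31 in ISR2 arrays, against 7.13, 6.86 and 6.78 in wild type arrays, and was 1.43-fold lower (adjusted p = 0.233). A pair of rows whose probes are assigned jointly to Cyp3a41a, Cyp3a41b and Cyp3a44, in 1 case with Cyp3a11, differed by -0.64 and -0.79. These paralogs are close in sequence, and their signals may not be separate.

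The whole Cyp3a subfamily did not follow Cyp3a11. Cyp3a25 stood at 12.20, 12.71 and 12.33 in ISR2 arrays, against 12.58, 12.20 and 12.10 in wild type arrays. Cyp3a13, an intestinal member, stood at 11.45, 12.27 and 11.65 in ISR2 arrays, against 12.09, 11.93 and 11.91 in wild type arrays. Both overlapped between the groups. Their differences were 0.12 (95% interval -0.29 to 0.52) and -0.18 (interval -0.64 to 0.27), so a change of 2-fold lay outside both intervals. Cyp3a25 changed sign to -0.03 without ISR2 replicate 2. Cyp3a16 and Cyp3a57 also overlapped, at -0.23 and 0.07.

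The Cyp2d genes, homologous to a human drug oxidase, lay below 0 in 8 of 9 cases, with a median of -0.37. Over all genes, 62.6% were below 0. Between 8 and 9 of the 9 were below 0 in each of 15 alternative fits. Again only changes of scaling, weights or arrays could move a sign. In Cyp2d9, Cyp2d11, Cyp2d12 and Cyp2d26, whose groups did not overlap, only a change of scaling could. Cyp2d22 stood at 9.49, 9.88 and 9.59 in ISR2 arrays, against 10.41, 10.15 and 9.77 in wild type arrays. Cyp2d26 stood at 11.50, 11.89 and 11.81 in ISR2 arrays, against 12.10, 11.93 and 12.24 in wild type arrays. The groups overlapped in Cyp2d22 and were narrowly apart in Cyp2d26. The differences were -0.46 ± 0.18 and -0.36 ± 0.15 (SE), with adjusted p = 0.323 and 0.354. Of the other Cyp2d genes, Cyp2d9, Cyp2d11 and Cyp2d12 were apart too, at -0.37, -0.37 and -0.38, while Cyp2d10, Cyp2d13 and Cyp2d40 overlapped at -0.26, -0.13 and -0.44. Cyp2d9, Cyp2d11 and Cyp2d12 were dim, with mean signals of 5.27, 4.77 and 3.56. Over all genes, 13.9% had every ISR2 array under every wild type array. Cyp2d34 was the 1 above 0, at 0.09. Cyp2e1, the ethanol oxidase, stood at 5.25, 6.71 and 5.41 in ISR2 arrays, against 5.12, 5.08 and 6.10 in wild type arrays. A single array in each group was high, and its difference of 0.36 turned to -0.10 without ISR2 replicate 2.

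**Figure D2:**
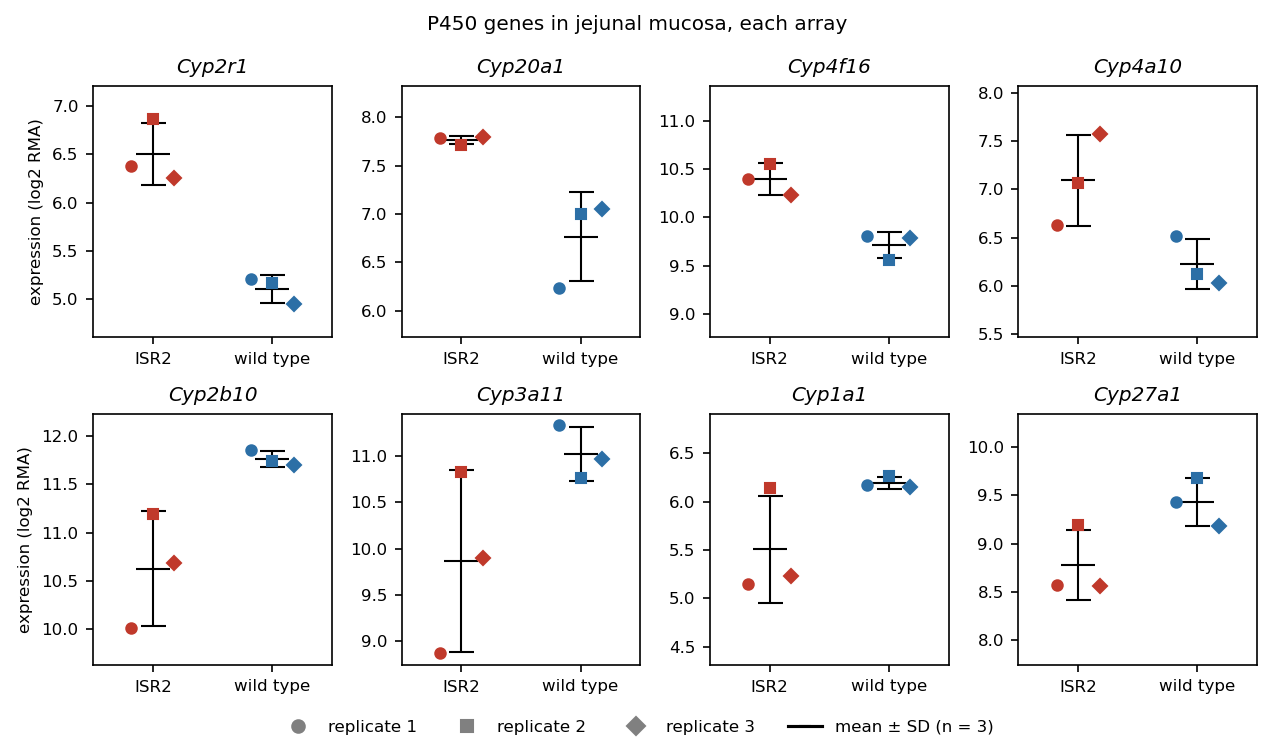
Log2 RMA expression (y axis) of 8 P450 genes in each array, with ISR2 on the left and wild type on the right of each panel; symbols mark the replicate, and bars are the mean ± SD (n = 3). Cyp2r1, Cyp20a1, Cyp4f16 and Cyp4a10 are higher in all ISR2 arrays, while in Cyp2b10, Cyp3a11, Cyp1a1 and Cyp27a1 ISR2 replicate 2 (square) is the ISR2 array nearest to wild type.

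Of the 4 genes linked to the aryl hydrocarbon receptor, none passed. Cyp1a1, its best known target, stood at 5.15, 6.14 and 5.23 in ISR2 arrays, against 6.17, 6.27 and 6.15 in wild type arrays. ISR2 replicate 2 was level with the wild type arrays, and the other two were about 1 log2 unit below. The difference was -0.69 ± 0.24 (SE; adjusted p = 0.242), and it was -1.01 without ISR2 replicate 2 (adjusted p = 0.00370). Cyp2s1, an epithelial P450, stood at 9.80, 9.77 and 10.19 in ISR2 arrays, against 9.70, 9.13 and 9.69 in wild type arrays. It was 1.33-fold higher, without overlap and without passing (adjusted p = 0.411). Cyp1a2 and Cyp1b1 differed by 0.17 and -0.25.

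The 19 genes of subfamilies Cyp2c and Cyp2j, many of which turn arachidonic acid into epoxides, held no call, and 14 were above 0. Their median was 0.08, and over 15 alternative fits it lay between -0.10 and 0.21, so it has no settled direction. All 6 Cyp2j genes were above 0, but only 3 without ISR2 replicate 2, and 4 with array weights or without wild type replicate 2. Without ISR2 replicate 2 and wild type replicate 3 together, 2 were above 0 and their median was -0.0061. Cyp2j6 stood at 10.43, 11.04 and 10.84 in ISR2 arrays, against 10.53, 10.12 and 10.11 in wild type arrays. Its ISR2 replicate 1 lay below wild type replicate 1, and the difference was 0.52 ± 0.19 (SE; adjusted p = 0.260). The other 5 (Cyp2j5, Cyp2j9, Cyp2j11, Cyp2j12 and Cyp2j13) overlapped, at 0.04 to 0.31.

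The 13 Cyp2c genes split into 8 above 0 and 5 below, a split with no settled direction. It was 4 above and 9 below with array weights, without ISR2 replicate 2, and without that array and wild type replicate 3, and 5 above and 8 below without wild type replicate 3. Cyp2c66 stood at 11.28, 11.79 and 11.60 in ISR2 arrays, against 11.94, 11.51 and 10.98 in wild type arrays. Cyp2c65 stood at 10.34, 10.69 and 10.67 in ISR2 arrays, against 10.94, 10.82 and 10.83 in wild type arrays. The first overlapped (difference 0.08) and the second did not (-0.30; adjusted p = 0.401). Cyp2c23, Cyp2c38 and Cyp2c39 were lower by 1.44-, 1.47- and 1.41-fold, without passing (adjusted p = 0.306, 0.377 and 0.158). Of these, Cyp2c39 stood at 3.64, 4.03 and 3.95 in ISR2 arrays, against 4.51, 4.38 and 4.21 in wild type arrays. The groups were narrowly apart at a dim signal. Cyp2c70, which makes muricholic acids in mouse liver, was 1.31-fold higher (adjusted p = 0.358). Cyp2c37, Cyp2c50, Cyp2c54, Cyp2c67 and Cyp2c68 overlapped, at 0.07 to 0.18. Cyp2c29 and Cyp2c55 varied widely within the groups, with SDs of 0.71 and 0.43 in ISR2 arrays, against 0.72 and 0.65 in wild type arrays.

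Genes of bile acid and cholesterol oxidation did not pass in any of 6 cases. Cyp27a1, the mitochondrial sterol hydroxylase that opens the alternative route to bile acids, stood at 8.57, 9.20 and 8.56 in ISR2 arrays, against 9.43, 9.68 and 9.18 in wild type arrays. ISR2 replicate 2 lay just above wild type replicate 3. The difference was -0.65 ± 0.20 (SE; adjusted p = 0.176), and it was -0.86 without ISR2 replicate 2 (adjusted p = 0.0297). Cyp7b1, which acts on oxysterols after it, stood at 5.34, 5.11 and 5.44 in ISR2 arrays, against 4.82, 5.14 and 4.94 in wild type arrays, with a difference of 0.33 ± 0.14 (SE; adjusted p = 0.371). Cyp7a1 and Cyp8b1, the classical hepatic genes, differed by -0.19 and 0.15. Cyp39a1 and Cyp46a1, an oxysterol hydroxylase and the cholesterol hydroxylase of neurons, differed by -0.26 and -0.12. For comparison, Cyp51, which lies upstream in cholesterol synthesis, was at 11.82 in ISR2 arrays, against 7.28 in wild type arrays (means), 23.3-fold higher.

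The 5 steroid hormone genes, Cyp11a1, Cyp11b1, Cyp11b2, Cyp17a1 and Cyp21a1, lay between -0.35 and -0.05, and between 3 and 5 of them were below 0 in each of 15 alternative fits. Each had a mean signal below the median of all genes. Cyp11b1, the last enzyme of corticosterone synthesis, stood at 4.82, 4.82 and 4.34 in ISR2 arrays, against 5.16, 4.97 and 4.89 in wild type arrays (adjusted p = 0.410). Cyp17a1 stood at 5.34, 5.73 and 5.70 in ISR2 arrays, against 5.73, 5.46 and 6.22 in wild type arrays, and overlapped.

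ISR2 replicate 2 was the highest ISR2 array for 50 of the 82 P450 genes, and wild type replicate 1 was the highest wild type array for 49. Without ISR2 replicate 2, 5 P450 genes fell and 1 rose, where 236 and 353 of all 19938 genes did. The 5 were Cyp1a1, Cyp2b10, Cyp3a11, Cyp27a1 and Cyp2b9 (adjusted p = 0.00370, 0.00636, 0.0208, 0.0297 and 0.0472). Marker lists of other cell types also varied between arrays. The mean of the 7 stem cell and crypt markers was 8.00, 7.14 and 8.26 in ISR2 replicates 1, 2 and 3, against 7.51, 7.85 and 8.35 in the wild type replicates. ISR2 replicate 2 was the lowest array there. The mean of the 13 enterocyte markers was 12.43, 12.68 and 12.55 in the ISR2 replicates, against 12.88, 12.87 and 12.84 in the wild type replicates. The mean of the 9 T cell markers was 7.13, 7.29 and 6.74 in the ISR2 replicates, against 8.14, 8.12 and 7.70 in the wild type replicates, with replicate 3 the lowest in each group. The part of these in the P450 values was not tested. The mean of the 9 hepatocyte markers was 4.98 to 5.25 in ISR2 arrays, against 5.06 to 5.24 in wild type arrays, and Alb stood between 4.55 and 5.11.

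**Figure D3:**
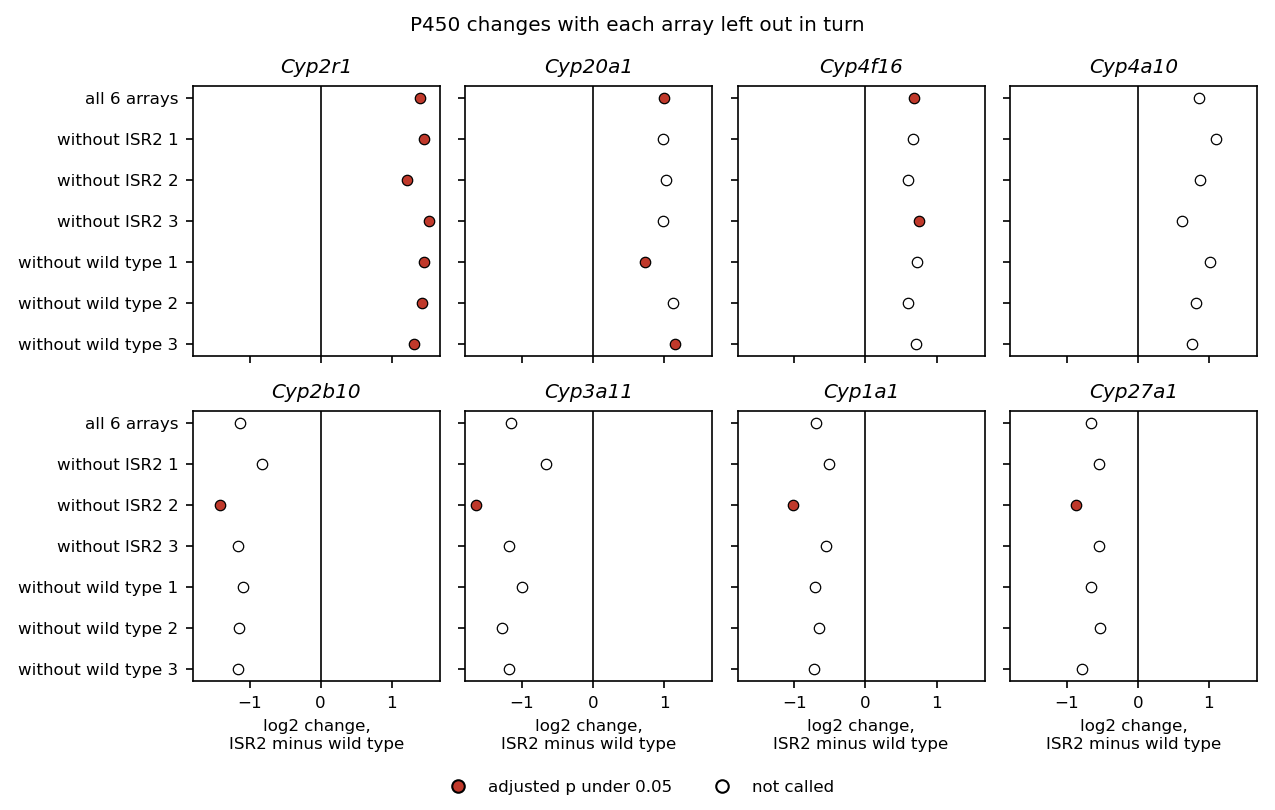
Log2 change (ISR2 minus wild type, x axis) of 8 P450 genes with all 6 arrays and with each array left out in turn (rows); filled points passed an adjusted p of 0.05. Cyp2r1 passed in every row, while Cyp2b10, Cyp3a11, Cyp1a1 and Cyp27a1 passed only in the row without ISR2 replicate 2, at -1.41, -1.64, -1.01 and -0.86.

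Lists of genes around the P450 system held between 0 and 3 calls each, where 3.02% of all genes were called. Of 9 redox partners, 1 rose and 0 fell: Pgrmc2, a heme-binding membrane protein related to the P450 partner Pgrmc1. It stood at 10.10, 9.94 and 10.41 in ISR2 arrays, against 8.88, 8.68 and 9.17 in wild type arrays, and rose 2.36-fold (adjusted p = 0.00436). That call held in all 16 alternative fits. Pgrmc1 differed by 0.18, and Cyb5a, a cytochrome b5 that feeds electrons to some P450s, by -0.23 (adjusted p = 0.600). Of 16 heme genes none passed. Alas1, which controls heme supply, differed by -0.04 ± 0.17 (SE), with a sign that turned after median centring. Hmox1, heme oxygenase, was 1.41-fold higher (adjusted p = 0.0706), and Slc25a38, a mitochondrial glycine carrier for heme synthesis, was 1.31-fold lower (adjusted p = 0.179).

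The 23 transcription factors known to act on P450 genes held no call. Nr1i2, Nr1i3 and Ahr differed by -0.11, 0.17 and 0.31 (adjusted p = 0.838, 0.852 and 0.424). These 3, Alas1 and Cyb5a were named for their role after their values were seen. Ppara stood at 9.01, 9.12 and 9.20 in ISR2 arrays, against 8.79, 8.55 and 8.55 in wild type arrays. It was 1.40-fold higher without overlap (adjusted p = 0.111). Nfil3, a clock-linked repressor, was 1.68-fold lower (adjusted p = 0.204). Of 5 other Ahr-linked genes none passed, with Nqo1 1.44-fold higher (adjusted p = 0.163) and Nfe2l2 1.19-fold lower (adjusted p = 0.508).

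Targets of PPAR alpha outside the P450 family went both ways: of 10 measured, Ehhadh rose, and Angptl4 and Vnn1 fell. Ehhadh, of peroxisomal fatty acid oxidation, stood at 11.16, 11.20 and 11.35 in ISR2 arrays, against 10.00, 9.89 and 10.21 in wild type arrays, and rose 2.31-fold. Vnn1, a pantetheinase, was 7.28-fold lower and Angptl4, an inhibitor of lipoprotein lipase, 2.10-fold lower. Among 14 flavin and aldehyde oxidases, 2 rose and 1 fell. Aldh1a7, a relative of the retinal dehydrogenase Aldh1a1, stood at 10.95, 11.03 and 11.06 in ISR2 arrays, against 8.54, 8.29 and 8.74 in wild type arrays, a rise of 5.62-fold (adjusted p = 1.64e-05). Aldh1a1 rose 1.65-fold (adjusted p = 0.0361) and Xdh, xanthine dehydrogenase, was 1.47-fold lower (adjusted p = 0.0440). Both of the last calls were lost without each single array in turn, with adjusted p up to 0.140 and 0.197, and that of Xdh also after median centring (0.0817). Of 15 eicosanoid and epoxide enzymes none passed, and 4 had every ISR2 array under every wild type array, a separation that 13.9% of all genes had. The smallest p-values there were those of Alox15 and Alox5ap, 1.43- and 1.38-fold lower (adjusted p = 0.118 each).

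**Figure D4:**
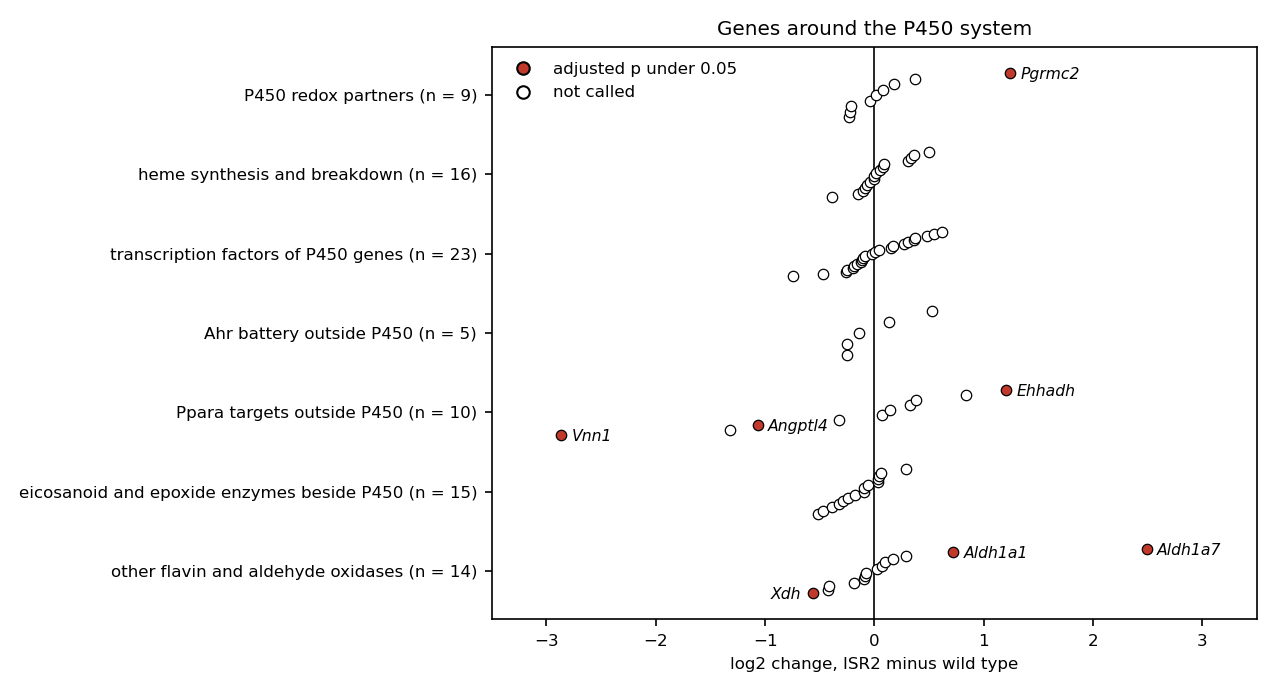
Log2 change (ISR2 minus wild type, x axis) of the measured genes of 7 lists around the P450 system (rows); filled points passed an adjusted p of 0.05 and are named. Redox partners, heme genes and transcription factors lie between -0.74 and 0.62 apart from Pgrmc2 at 1.24, while the PPAR alpha targets run between Vnn1 at -2.86 and Ehhadh at 1.21.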

How the data were processed

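Total RNA of 6 mucosal scrapings was biotin-labelled with an Affymetrix protocol, per the labels. The authors deposited log2 values, for which the submitters' processing notes name RMA. RMA equalises the arrays, so changes are relative to the bulk of genes. No RMA version is named in those notes. The table held 35556 rows, of which 21789 carried 1 gene symbol, 1621 several and 12146 none. For a gene with several rows (999 genes) the row of highest mean signal was kept, leaving 19938 genes. All 82 P450 symbols matched the RefSeq gene table by Entrez ID. The precision is limited by the number of arrays.

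Groups came from the sample titles. Genes were fitted together with lmFit and eBayes of limma 3.58.1 (R 4.3.3), and two-sided p-values received the Benjamini-Hochberg adjustment over the 19938 genes (threshold 0.05). In data simulated for this comparison (19938 genes), 58% of genes with a simulated log2 change of 1 were recovered, and 6 of 134 calls were false. Members and lists were chosen with earlier results of these data known. Named P450 genes were those that passed, the 10 with the highest mean, the 10 largest differences each way and the 2 smallest p-values per role; of each other list, those that passed or else the 2 smallest p-values. Others were named after their values were seen. Alternatives changed the prior, weights, scaling, filter, rows, block, thresholds and arrays. Figures used matplotlib 3.10.9.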

Additional observations from a re-analysis of the deposited data

How the results depend on the processing

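The count of P450 genes that rose was 3 as reported, 1 with all rows tested, 5 at an unadjusted p of 0.05 with 1.5-fold, and between 1 and 2 with 1 array left out (1 without ISR2 replicate 1, ISR2 replicate 2 or wild type replicate 2). With the filter on dim genes, which removes Cyp2r1, 2 rose. The count that fell was 0 with all arrays and between 0 and 5 with 1 array left out. It was 1 with an intensity trend, quantile normalization, the filter on dim genes or an adjusted p of 0.10. At an unadjusted p with 1.5-fold it was 4, and with array weights 10. Without ISR2 replicate 2 and wild type replicate 3 (chosen after seeing the data) it was 6. Over all 19938 genes, 246 fell as reported, 638 with array weights and 303 without both of those arrays. With the replicate number as a block, 4 P450 genes rose and 2 fell, where 426 and 352 of all genes did. With 3 arrays a group, the deviations cannot settle whether the numbers pair the arrays. Deviations of same-numbered arrays correlated at -0.02, 0.32 and 0.54. ISR2 replicates 2 and 3 correlated best with the wild type array of their own number. ISR2 replicate 1 correlated best with wild type replicate 3, at 0.13. With array weights 8 genes of the 7 other lists fell, against 3 as reported. The median P450 difference stayed between -0.18 and -0.04. Signs turned only where no call was made. With array weights Cyp3a25 was -0.0381, Cyp2c66 -0.13 and Alas1 0.0142; Alas1 was 0.0075 after median centring. Without ISR2 replicate 2 and wild type replicate 3, Cyp3a25 was -0.13, Cyp2c66 -0.29, Nr1i3 -0.27 and Alas1 0.16. With 1 array left out, Cyp3a25 ran between -0.03 and 0.26, Cyp2c66 between -0.17 and 0.31, Cyp4f13 between -0.28 and 0.0083, Cyp2e1 between -0.10 and 0.69, Nr1i3 between -0.07 and 0.38, and Alas1 between -0.21 and 0.10. The cause was not tested. With 3 arrays a group, signal near background limits what can be seen of the 53 dim P450 genes. Subfamily and role counts over 15 alternative fits leave out the filter on dim genes, which removes members. Of those fits, the ones that changed only the prior, block or rows left P450 differences as they were. They therefore do not test direction. Weighting or leaving out arrays also cannot turn the sign of a gene whose groups do not overlap.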
